A study of Rattus norvegicus with 82 samples.

Results

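The genes described here encode subunits of potassium, sodium, calcium and transient receptor potential (TRP) channels in rat ventricular cardiomyocytes. They were chosen by symbol, as every gene of the deposited table whose name starts with Kcn, Cacn, or with Hcn, Scn, Trpc, Trpm or Trpv and a digit, and by a mean raw count of at least 10 over the 82 libraries. Among 17337 genes, 155 had such a name, 81 of them met the minimum, and all 81 also passed the filter on low counts used in the tests. The members just inside the minimum were Trpm2, Trpm3 and Trpc4, with mean raw counts of 10.1, 10.2 and 10.6, and those just outside were Kcnmb1, Kcnab2 and Kcnv2, with 9.78, 9.61 and 9.37. Trpc4ap and Kcnrg met the rule by their letters, although their products are a protein that binds TRPC4 and a regulator of potassium channel assembly rather than channel subunits. Cacng3 and Kcnk6 had no count in any library.

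Each of 41 rats gave 1 preparation of cardiomyocytes from its right ventricle (RV) and 1 from its left ventricle (LV). The rats were F1 offspring of Wistar Kyoto mothers and Lewis fathers and of both sexes. A titanium clip around the pulmonary artery (PAB) loaded the RV, a clip around the aorta (AOB) loaded the LV, and sham-operated animals served as controls. At the stage of compensatory hypertrophy (H), 7 weeks after surgery and at a labelled age of 11 weeks, the animals numbered 7 in Sham-H, 6 in PAB-H and 6 in AOB-H. At the stage of heart failure (F) there were 9 Sham-F and 7 AOB-F animals, 26 weeks after surgery and 31 weeks old by the labels, and 6 PAB-F animals, 22 weeks after surgery and 28 weeks old. The PAB-F animals were therefore younger than their sham controls. The labels and the study's text give different ages at surgery, and also different weeks at harvest. The clip did not narrow the vessel when it was placed, and the load rose as the animal grew. The cells were released with collagenase and separated by centrifugation, without a sort for a marker, so that an expression value is that of the myocyte preparation of a whole ventricle.

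Voltage-gated sodium channels carry the upstroke of the cardiac action potential, L-type calcium channels carry the current of the plateau that triggers release of calcium from the sarcoplasmic reticulum, and potassium channels repolarize the cell. In the rodent ventricle repolarization is dominated by the transient outward current Ito and other voltage-gated potassium currents, while inward rectifiers hold the resting potential. Each channel is built of pore-forming alpha subunits and accessory subunits that set their number at the surface and their gating. Loss of Ito and return of channels of the foetal heart, such as T-type calcium channels, are known features of hypertrophied and failing myocardium.

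The libraries held between 6675287 and 19665439 counted reads, with a median of 13074486. The 9 ventricular cardiomyocyte marker genes, among them Myh6 and Tnnt2, accounted for 5.54% to 12.4% of all reads counted per library. Irx1 and Irx2, transcription factor genes expressed in the ventricular septum, were lower in the RV than in the LV of the same animal in 41 of 41 animals. All but 1 of the LV libraries of the older animals (PAB-F animal 5) lay beyond every RV library on the first principal component of the 2000 most variable genes, which held 48.4% of the variance, and so did the LV libraries of Sham-H animals 4 and 5, PAB-H animal 2 and AOB-H animal 6. The RV libraries of PAB-H animal 2 and PAB-F animal 1 lay close to the nearest of them, LV AOB-F animal 5. The share of 7 endothelial markers moved with this difference and was 0.193% to 0.337% of the counts in LV Sham-F and 0.0606% to 0.104% in RV Sham-F. Endothelial markers were called lower in the RV for 6 of 7 genes in Sham-H and 5 of 7 in Sham-F, mural cell markers for 3 of 7 and 5 of 7, fibroblast markers for 2 of 9 and 6 of 9, and macrophage markers for 0 and 5 of 8, while 1 endothelial and 1 mural marker were called higher in Sham-F. Their part in the differences between the ventricles was not tested, and in such bulk libraries fewer cells of a type and less RNA per cell cannot be told apart. Of the 81 members 54 lay in the tertile of the longest genes, and counts from a fit with an offset for gene length are given for some comparisons below.

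Between genes, levels were compared per length of transcript, as FPKM (fragments per kilobase of transcript, scaled to the size of the library). Kcng2 was abundant, coding for a potassium channel subunit that is silent on its own and modifies Kv2 channels, with a mean of 251 ± 75.03 FPKM (SD, n = 82). The pacemaker channel gene Hcn2 had 136 ± 59.2 FPKM. Cacna1c, the pore of the L-type calcium channel, had 106 ± 22.3 FPKM, and Kcnk3, coding for the leak channel TASK-1, had 87.5 ± 23.7.

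Of the repolarizing channels, Kcnq1 and Kcnh2, the pores of the slow and the rapid delayed rectifier, reached 84.1 and 33.8 FPKM. Kcnj11, the pore of the sarcolemmal ATP-sensitive channel, had 83.4 and Kcnj8, the pore typical of vascular muscle, 16.2. Kcnj3 and Kcnj5, which together form the acetylcholine-gated channel, had 51.01 and 23.1, and the IK1 pores Kcnj2 and Kcnj12 had 47.7 and 26.4. The Ito pores Kcnd2 and Kcnd3 reached 15.5 and 11.8 FPKM. Of the other high transcripts, the sodium channel subunit Scn4b had 80.8, the calcium channel subunits Cacnb2, Cacna2d1 and Cacna2d2 had 48.3, 34.4 and 14.9, Hcn4 had 21.3, and the TRP channels Trpm7 and Trpc1 had 17.4 and 12.3. Of the 81 members 27 had a mean above 10 FPKM and 25 a mean under 1. The members' median was 2.40 FPKM, against 9.56 for all genes tested, and together they made up 0.311% to 0.471% of all FPKM of a library.

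**Figure D1:**
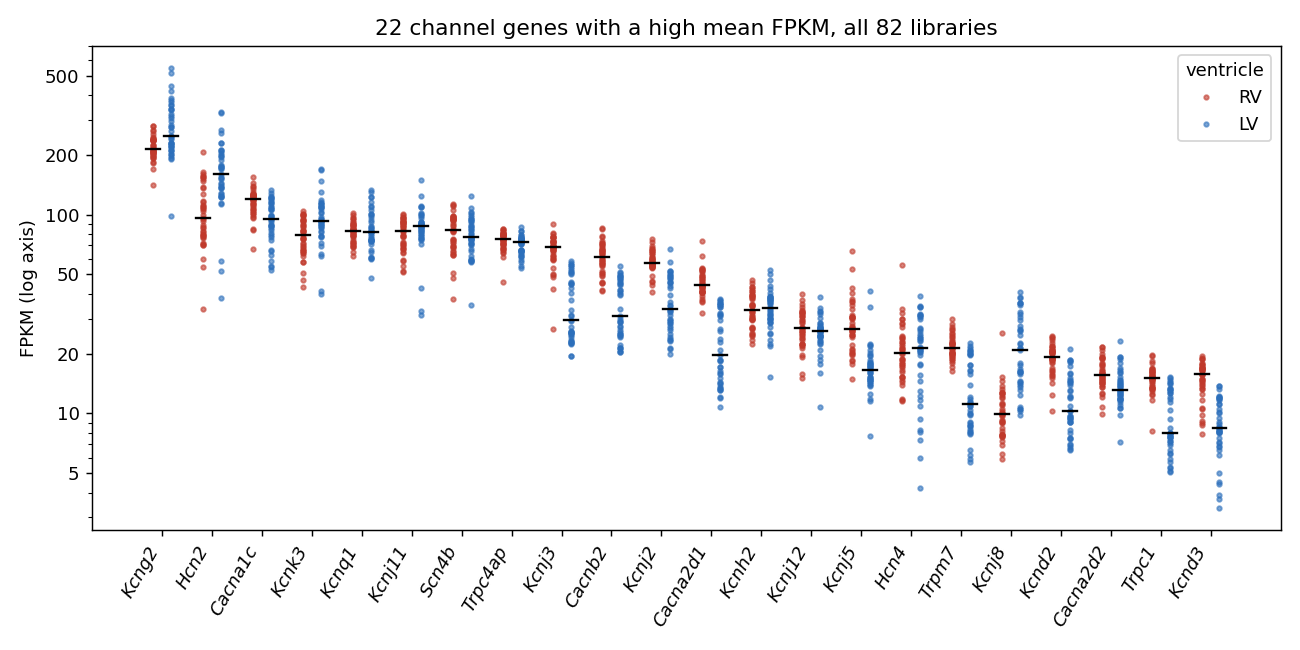
FPKM on a log axis of 22 channel genes with a high mean, with 1 point per library, RV in red and LV in blue, and a bar at the median of each ventricle. Kcnj3, Cacnb2, Cacna2d1 and Trpm7 sit higher in the RV libraries, and Hcn2 and Kcnj8 sit higher in the LV libraries.

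RV and LV cardiomyocytes of the same animal were compared in each of the 6 conditions, with the animal as a block. Channel genes differed between the ventricles in both directions, the RV having more transcript of, among others, Kcnd2, Kcnd3, Kcnj3, Cacna1d and Cacnb2 and the LV more of Kcna5, Kcnj8, Kcns3 and Cacnb3. A gene was called at an adjusted p under 0.05 over all 11954 genes tested in edgeR's quasi-likelihood test. In Sham-H 18 of 81 members were called higher in the RV, against 17.7% of all genes, and 15 lower, against 14.8%. In Sham-F 25 were higher, against 37.3%, and 32 lower, against 40%. In PAB-F 21 were higher and 21 lower, against 34.1% and 32.2%, and in AOB-F 27 and 24, against 34.6% and 36%. These shares of the members were near those of all genes. In AOB-H 16 members were higher, against 4.46%, and 8 lower, against 9.29%. In PAB-H 1 was called higher, against 0.979%, and 1 lower, against 0.535%, whereas DESeq2 called 6. The median log2 fold change of the members lay between -0.10 in Sham-F and 0.25 in PAB-H, and that of all genes between -0.05 and 0.05. With an offset for gene length, 22 were higher and 35 lower in Sham-F, 18 and 26 in PAB-F and 26 and 26 in AOB-F. The members' median in Sham-F was then -0.25.

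A smaller group differed in the same direction at nearly every stage and load. In at least 5 of the 6 conditions 11 members were called higher in the RV, namely Cacna1d, Cacna2d1, Cacnb2, Kcna2, Kcna4, Kcnd2, Kcnd3, Kcnj3, Kcnj5, Kcnk2 and Scn1a, against 1.47% of all genes, and 5 were called lower, namely Kcna5, Kcng4, Kcnj8, Kcnn3 and Kcns3, against 5.71%. The members' share was thus above that of all genes for the higher ones and near it for the lower ones. Cacna1d was called higher in 6 of 6 conditions, as were 0.184% of all genes, and Kcna5 lower in 6 of 6, as were 0.435%. Cacna1d, Cacna2d1, Cacnb2, Kcnj3 and Scn1a were higher in the RV of 41 of 41 animals, and Kcna5 was lower in 40 of 41. The 6 conditions come from different animals. Without the 5 animals with a library that stands apart (Sham-H animals 4 and 5, PAB-H animal 2, AOB-H animal 6 and PAB-F animal 1), 8 of the 11 and 1 of the 5 met the same rule, and without the animal block 6 and 3 did. Without the 5 animals Cacnb2, Kcna4 and Kcnd2 no longer met it, and of the lower genes only Kcns3 still did. PAB-F animal 5 was not among the 5. Its LV library lay at 1.73 on the first principal component, and the other LV PAB-F libraries at 40.1 to 54.5.

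**Figure D2:**
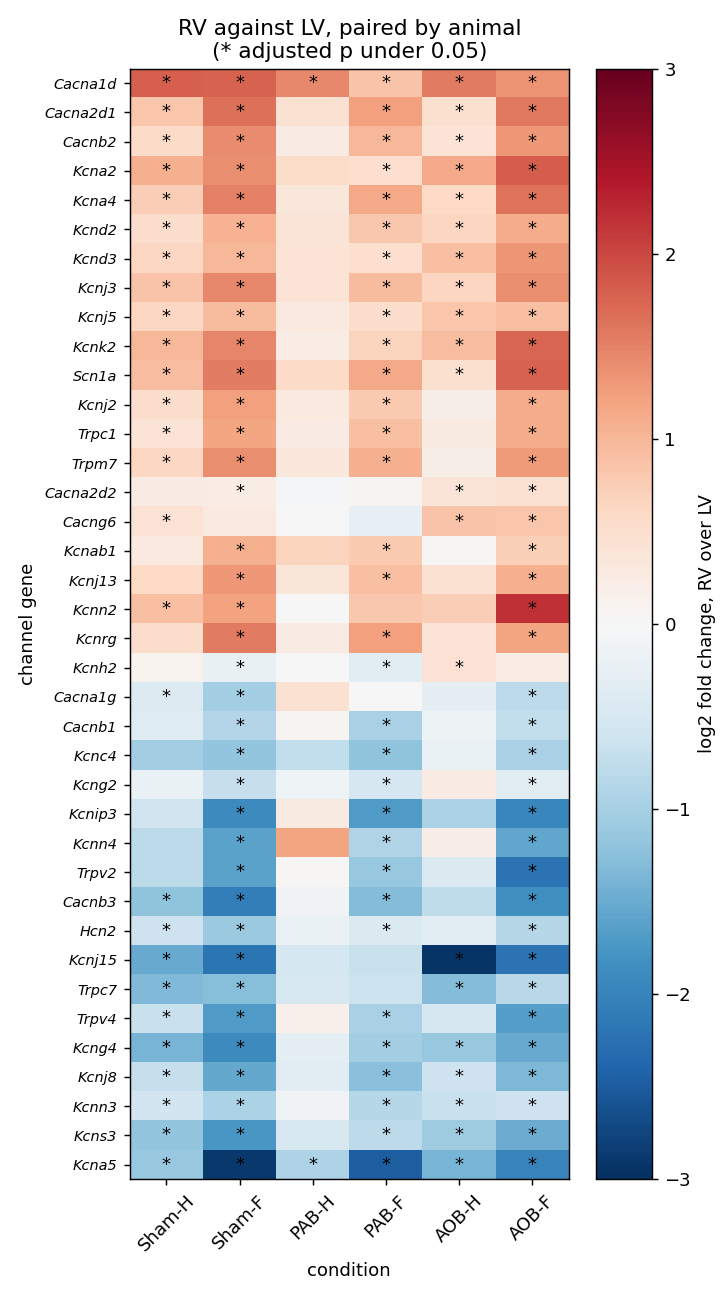
Log2 fold change of RV over LV, paired by animal, of 38 channel genes called in at least 3 of the 6 conditions, with red for higher and blue for lower in the RV and an asterisk for an adjusted p under 0.05. Columns are the conditions, and PAB-H is the palest column, with asterisks at Cacna1d and Kcna5.

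Ito is carried by Kv4 channels, whose pores are coded by Kcnd2 and Kcnd3 and whose main accessory subunit is coded by Kcnip2, and in its slow form by Kcna4. Normalized counts (raw counts scaled by the library's effective size) of Kcnd3 were 1244 to 1770.4 (median 1587) in RV Sham-F and 413 to 1089 (median 755) in LV Sham-F. No RV library was as low as the highest LV library, and the log2 fold change was 0.997 ± 0.14 (SE, adjusted p = 2.35e-08). In Sham-H the ranges were 1358 to 1739 (median 1561) and 743 to 1279.5 (median 1114), which did not overlap either, with a log2 fold change of 0.63 ± 0.16 (SE, adjusted p = 0.00231). Kcnd2 was higher in the RV by 0.52 ± 0.14 (SE, adjusted p = 0.00532) in Sham-H and by 1.04 ± 0.13 (SE, adjusted p = 1.18e-09) in Sham-F, and Kcna4 by 0.75 ± 0.18 (SE, adjusted p = 0.00237) and 1.51 ± 0.17 (SE, adjusted p = 1.01e-10). Without the 5 animals, Kcnd2 and Kcna4 were not called in Sham-H. Kcnip2 was not called in either sham condition, at 0.07 ± 0.19 and 0.17 ± 0.17 with adjusted p-values of 0.806 and 0.376. With an offset for gene length, 10 of the 11 members called higher in at least 5 conditions were left, and Kcnd3 was the one lost.

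Kv1 genes moved apart from each other. Kcna2 and Kcna4, the pores of Kv1.2 and Kv1.4, were higher in the RV, and Kcna5, the pore of Kv1.5 that carries an ultrarapid delayed rectifier current, was lower. Counts of Kcna5 were 17.2 to 73.1 (median 33) in RV Sham-F and 136 to 473 (median 208) in LV Sham-F, so that every LV library lay above every RV library. The log2 fold change was -2.89 ± 0.21 (SE, adjusted p = 3.16e-15), the largest difference of any channel gene in that condition, and the sign was the same in 9 of 9 animals. In Sham-H the ranges 24.8 to 84.6 (median 44.6) and 43.98 to 300.4 (median 71.1) overlapped, with a log2 fold change of -1.13 ± 0.24 (SE, adjusted p = 0.000555). In PAB-H Kcna5 differed by -0.92 ± 0.25 (SE, adjusted p = 0.0441), and without PAB-H animal 2, whose LV library had the highest count of its group at 530.1, at -0.89 with an adjusted p of 0.168.

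Kcna2 had counts of 128 to 552 (median 416) in RV AOB-F and 23.6 to 189 (median 155) in LV AOB-F, which overlapped because 1 RV library was low. Its log2 fold change there was 1.81 ± 0.16 (SE, adjusted p = 4.11e-12), with the RV higher in 7 of 7 animals. It was 1.07 ± 0.16 (SE, adjusted p = 1.96e-06) in Sham-H and 1.40 ± 0.14 (SE, adjusted p = 8.06e-12) in Sham-F. Kcna4 differed by 1.62 ± 0.19 (SE, adjusted p = 9.98e-10) in AOB-F and 1.14 ± 0.20 (SE, adjusted p = 5.17e-06) in PAB-F.

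The promoters of these Kv1 genes are shown because the genes, close relatives, differed between the ventricles in opposite directions. They are the 250 bases before the start of the gene in RefSeq, build GRCr8, which is not the build of the counts. Kcna2 lies at chr2:197393280-197393529 on the plus strand, Kcna4 at chr3:114215086-114215335 on the plus strand and Kcna5 at chr4:161043810-161044059 on the minus strand, each printed 5′ to 3′ along its gene, with the T-box motif AGGTGT on either strand in capitals.
Kcna2: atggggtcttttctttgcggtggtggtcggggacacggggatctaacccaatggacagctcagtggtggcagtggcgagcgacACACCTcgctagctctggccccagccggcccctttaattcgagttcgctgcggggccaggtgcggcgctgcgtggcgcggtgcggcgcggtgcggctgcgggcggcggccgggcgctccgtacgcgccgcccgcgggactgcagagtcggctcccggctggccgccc
Kcna4: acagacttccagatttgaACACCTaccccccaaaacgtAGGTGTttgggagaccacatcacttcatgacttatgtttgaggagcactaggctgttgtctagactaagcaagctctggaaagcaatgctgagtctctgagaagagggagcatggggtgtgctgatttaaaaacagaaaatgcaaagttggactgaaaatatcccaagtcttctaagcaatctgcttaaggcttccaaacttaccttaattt
Kcna5: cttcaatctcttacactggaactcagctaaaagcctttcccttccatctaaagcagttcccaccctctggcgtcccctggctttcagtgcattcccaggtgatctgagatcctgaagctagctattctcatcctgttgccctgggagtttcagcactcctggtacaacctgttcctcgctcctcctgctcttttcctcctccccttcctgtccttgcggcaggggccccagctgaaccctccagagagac
Kcna2 held the motif once, Kcna4 held it 2 times and Kcna5 did not hold it. T-box factors such as Tbx5 are regulators of cardiac identity, and the Iroquois motif ACANNTGT, the GATA motif AGATAA and the TATA motif TATAAA, searched on both strands, were in none of these 3 windows. Of the members 56 matched the RefSeq table, with 62 promoters, of which 12.9% held the T-box motif, against 11.6% of all 33469 promoters. Members called higher in the RV in at least 5 conditions had 13 promoters, of which only these 2, of Kcna2 and Kcna4, held it. Those called lower had 6, of which 0 held it. The Iroquois motif was in 3.23% of the members' promoters and 6.71% of all, the GATA motif in 6.45% and 10.3%, and the TATA motif in 1.61% and 12.9%. The median GC content was 62.8% in the members' promoters and 51.2% in all. A match of so short a motif is a description of the letters.

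**Figure D3:**
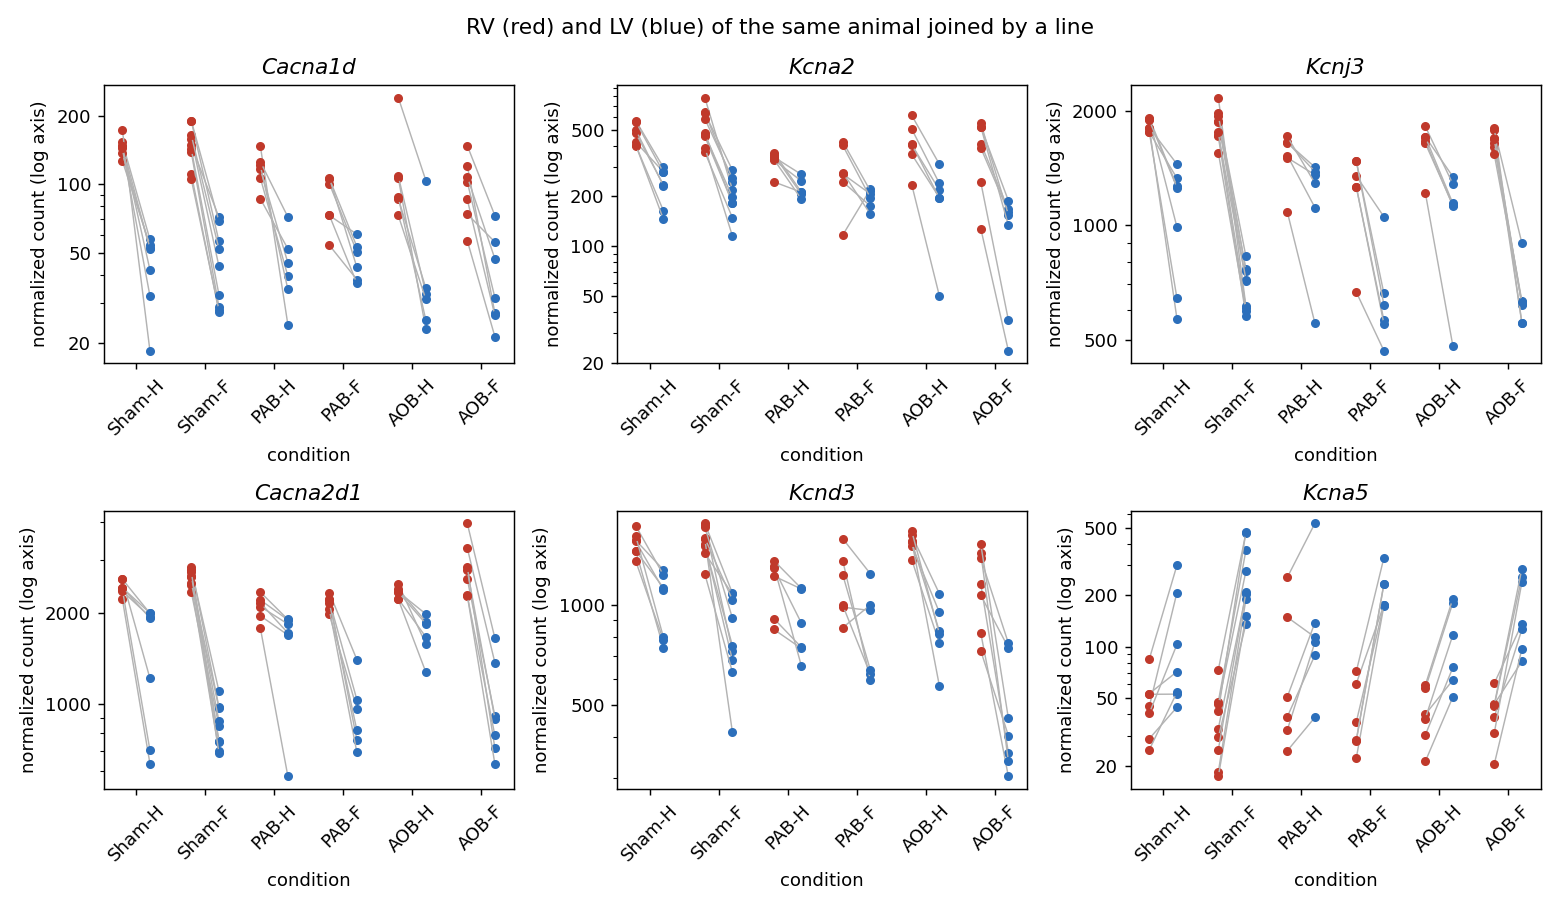
Normalized counts on log axes of 6 channel genes in the RV (red) and LV (blue) of each of the 41 animals, by condition, with a line joining the ventricles of 1 animal. Lines of Cacna1d, Kcnj3 and Cacna2d1 fall from RV to LV in every animal, and those of Kcna5 rise in 40 of 41.

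Among the inward rectifiers, both subunits of the acetylcholine-gated channel were higher in the RV. Kcnj3 had 1557 to 2175 (median 1878) in RV Sham-F and 578 to 828 (median 716) in LV Sham-F, and even the lowest RV library was above the highest LV library. The log2 fold change was 1.43 ± 0.11 (SE, adjusted p = 2.28e-14), and in Sham-H it was 0.85 ± 0.13 (SE, adjusted p = 3.32e-06). Kcnj5 differed by 0.62 ± 0.11 (SE, adjusted p = 3.31e-05) in Sham-H and 0.96 ± 0.09 (SE, adjusted p = 5.90e-12) in Sham-F. Of the IK1 pores, Kcnj2 was higher in the RV in 4 conditions, by 1.22 ± 0.10 (SE, adjusted p = 2.18e-13) in Sham-F, while Kcnj12 was not called in Sham-F, at 0.00 ± 0.09 (SE), and was higher in AOB-H and AOB-F by 0.40 ± 0.11 (SE, adjusted p = 0.0129) and 0.28 ± 0.10 (SE, adjusted p = 0.0175).

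The ATP-sensitive channel pores differed from each other. Kcnj11 was called only in Sham-F, at -0.32 ± 0.10 (SE, adjusted p = 0.0054), whereas Kcnj8 was lower in the RV in 5 conditions and in 40 of 41 animals, with 132 to 295 (median 164) in RV Sham-F, 361 to 821 (median 544) in LV Sham-F and a log2 fold change of -1.53 ± 0.13 (SE, adjusted p = 4.62e-13). The ranges did not overlap. Kcnj8 is also expressed in vascular smooth muscle and pericytes, and the mural and endothelial markers moved with it in the same direction. Kcnj15, coding for Kir4.2, had the largest difference of any member in AOB-H, -2.94 ± 0.50 (SE, adjusted p = 2.83e-05), at low counts of 0 to 11.04 (median 3.44) in the RV and 13.3 to 58.4 (median 30.2) in the LV. Its log2 fold change was -1.51 ± 0.41 (SE, adjusted p = 0.00526) in Sham-H, and -1.48 with an adjusted p of 0.087 without the 5 animals. Kcnk2, which codes for the stretch-activated leak channel TREK-1, was higher in the RV by 1.004 ± 0.17 (SE, adjusted p = 3.30e-05) in Sham-H, 1.45 ± 0.16 (SE, adjusted p = 4.81e-11) in Sham-F and 1.75 ± 0.18 (SE, adjusted p = 8.31e-11) in AOB-F. In PAB-H it was not called, at 0.21 ± 0.19 (SE, adjusted p = 0.516). Kcnk3 was lower in Sham-F and PAB-F, at -0.55 ± 0.11 (SE, adjusted p = 2.94e-05) and -0.41 ± 0.14 (SE, adjusted p = 0.00821).

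Kcns3, Kcng4 and Kcng2, which code for silent subunits that modify Kv2 channels, were lower in the RV in Sham-F. Kcns3 was lower, at -1.18 ± 0.22 (SE, adjusted p = 0.000114) in Sham-H and -1.74 ± 0.19 (SE, adjusted p = 9.81e-11) in Sham-F, and Kcng4 at -1.40 ± 0.31 (SE, adjusted p = 0.001) and -1.90 ± 0.28 (SE, adjusted p = 7.96e-08). The abundant Kcng2 differed by -0.69 ± 0.12 (SE, adjusted p = 1.88e-06) in Sham-F and was not called in Sham-H, at -0.21 ± 0.14 (SE, adjusted p = 0.245). Without the 5 animals Kcns3 was still called in Sham-H, at -1.001 with an adjusted p of 0.00963, and Kcng4 was not, at -1.06 with 0.0796. Counts of Kcng4 were low, with medians of 6.67 in RV Sham-H and 18.7 in LV Sham-H. Of the other voltage-gated subunits with large differences, Kcnq5, the pore of Kv7.5, was higher in the RV in Sham-H by 1.32 ± 0.33 (SE, adjusted p = 0.00248), while Kcnc4 of the Kv3 family was lower, at -1.20 ± 0.44 (SE, adjusted p = 0.017) in PAB-F and Kcnip3, a calcium sensor that can bind Kv4 channels, at -1.91 ± 0.36 (SE, adjusted p = 6.63e-06) in Sham-F, -1.71 ± 0.42 (SE, adjusted p = 0.000529) in PAB-F and -1.96 ± 0.41 (SE, adjusted p = 5.51e-05) in AOB-F. Without the 5 animals Kcnq5 in Sham-H had an adjusted p of 0.0592. Kcnrg was higher in the RV by 1.55 ± 0.31 (SE, adjusted p = 2.13e-05) in Sham-F and 1.24 ± 0.36 (SE, adjusted p = 0.00259) in PAB-F. Of the calcium-activated potassium channels, Kcnn2 was higher in the RV in AOB-F by 2.19 ± 0.36 (SE, adjusted p = 1.21e-06), Kcnn3 lower, at -0.95 ± 0.15 (SE, adjusted p = 1.72e-07) in Sham-F and Kcnn4 at -1.59 ± 0.31 (SE, adjusted p = 1.16e-05). Counts of Kcnn2 were low, with medians of 35.8 in RV AOB-F and 5.19 in LV AOB-F.

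Scn1a, a sodium channel best known from neurons, was higher in the RV in all 41 animals, by 1.54 ± 0.13 (SE, adjusted p = 2.93e-13) in Sham-F and 1.76 ± 0.15 (SE, adjusted p = 9.71e-13) in AOB-F. Its counts were 564 to 1013 (median 717) in RV Sham-F and 208 to 476 (median 233) in LV Sham-F, and the groups did not overlap, although the highest LV library, 476, stood far above the next, 268. Scn4b, a beta subunit, was higher in the RV by 0.29 ± 0.10 (SE, adjusted p = 0.00667) in Sham-F and not called in Sham-H, at -0.10 ± 0.11 (SE, adjusted p = 0.509). Of the pacemaker channels Hcn2 was lower in the RV, at -0.63 ± 0.16 (SE, adjusted p = 0.00283) in Sham-H and -1.12 ± 0.14 (SE, adjusted p = 3.26e-09) in Sham-F, while Hcn4 was not called in any condition.

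Cacna1d, the pore of Cav1.3, which is typical of the sinoatrial node and atria, was the member with the most regular difference. Its counts were 127 to 174 (median 147) in RV Sham-H and 18.4 to 57.1 (median 51.8) in LV Sham-H, and 105 to 191 (median 149) and 27.4 to 71.6 (median 43.5) in Sham-F. The ventricles did not overlap at either stage. The log2 fold changes were 1.80 ± 0.20 (SE, adjusted p = 1.14e-08) and 1.77 ± 0.17 (SE, adjusted p = 6.14e-12), and over the other conditions they lay between 0.86 in PAB-F and 1.56 in AOB-H. Both ventricles of AOB-H animal 6 had far more of it than the other animals of that group, 241 in the RV and 104 in the LV. The transcript itself was scarce, at 0.767 FPKM against 106 for Cacna1c.

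Cacna1c was higher in the RV in Sham-F and AOB-F, by 0.44 ± 0.10 (SE, adjusted p = 0.000161) and 0.64 ± 0.12 (SE, adjusted p = 6.93e-06). Of the subunits that carry L-type channels to the surface, Cacnb2 differed by 0.57 ± 0.13 (SE, adjusted p = 0.00158) in Sham-H and 1.41 ± 0.12 (SE, adjusted p = 1.26e-13) in Sham-F, and Cacna2d1 by 0.84 ± 0.16 (SE, adjusted p = 0.000107) and 1.64 ± 0.14 (SE, adjusted p = 1.09e-13). Without the 5 animals Cacnb2 was not called in Sham-H. For Cacna2d1 the ranges were 2339 to 2842 (median 2648) in RV Sham-F and 691 to 1104 (median 848) in LV Sham-F, with no overlap. In LV Sham-H they split into 3 low libraries, from 635, and the others up to 1997. The other beta subunits went the opposite way, Cacnb3 at -2.07 ± 0.22 (SE, adjusted p = 5.02e-11) and Cacnb1 at -0.88 ± 0.26 (SE, adjusted p = 0.00214) in Sham-F. In Sham-H Cacnb3 was lower, at -1.21 ± 0.26 (SE, adjusted p = 0.000729), and without the 5 animals at -0.76 with an adjusted p of 0.116. Cacng6, a gamma subunit found mainly in striated muscle, was higher in the RV by 0.86 ± 0.19 (SE, adjusted p = 0.0014) in AOB-H and 0.84 ± 0.18 (SE, adjusted p = 6.58e-05) in AOB-F. The T-type pores Cacna1g and Cacna1h were lower in the RV, at -1.02 ± 0.12 (SE, adjusted p = 9.91e-10) and -0.58 ± 0.10 (SE, adjusted p = 7.23e-07) in Sham-F.

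Of the 13 TRP channels, Trpm7, a divalent cation channel joined to a kinase, and Trpc1, a subunit of store- and receptor-operated channels, were higher in the RV in 4 conditions, by 1.40 ± 0.15 (SE, adjusted p = 3.18e-11) and 1.19 ± 0.13 (SE, adjusted p = 8.28e-11) in Sham-F. Trpc7 and Trpv4 were lower in 4 conditions, at -1.29 ± 0.30 (SE, adjusted p = 0.000161) and -1.70 ± 0.20 (SE, adjusted p = 5.59e-10) in Sham-F. Trpv4 and Trpv2 are also expressed by endothelial cells and macrophages. Most endothelial markers were called lower in the RV in both sham conditions, and most macrophage markers in Sham-F but none in Sham-H. In AOB-F the median share of the endothelial markers was 0.0861% in the RV and 0.322% in the LV. That of the macrophage markers was 0.00723% and 0.0203%. The part of these cells was not tested. Trpv2 differed by -2.22 ± 0.31 (SE, adjusted p = 6.62e-08) and Trpm2, an oxidant-gated channel, at -2.10 ± 0.47 (SE, adjusted p = 0.000122) in AOB-F. Trpm3 was higher in PAB-F, by 1.21 ± 0.47 (SE, adjusted p = 0.0219), and without PAB-F animal 1 by 0.93 with an adjusted p of 0.113.

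The number of members called at the younger stage moved with the LV libraries that stand apart. Without Sham-H animal 4 the calls in Sham-H went from 33 to 22, and without all 5 animals to 10, in which Cacna1d, Cacna2d1, Kcna2, Kcnd3, Kcnj3, Kcnj5, Kcnk2 and Scn1a were higher and Kcns3 and Trpc7 lower in the RV. Without AOB-H animal 6, whose LV library was the shallowest, the count in AOB-H went from 24 to 13. Without all 5 animals it was 17. Both runs held the same AOB-H animals, so 13 and 17 differ through the rest of the fit. No Sham-F animal was among the 5. The Sham-F count, 58 without them and 57 with them, therefore says nothing of libraries in that group.

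Between the younger and the older sham animals, channel genes and other genes alike were called in the LV, and no channel gene was called in the RV. Set against LV Sham-H, 24 members rose in LV Sham-F, against 27.8% of all genes, and 14 fell, against 29.6%. The members' share was thus near that of all genes for rises and below it for falls. In the RV of the same animals 0 of 81 were called, against 0.0502% of all genes in edgeR, 7 had an unadjusted p under 0.05, and DESeq2 called 0. The Sham-H and Sham-F animals are different animals, and stage, age and time after surgery cannot be told apart here.

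Kcna5 had 43.98 to 300.4 (median 71.1) in LV Sham-H and 136 to 473 (median 208) in LV Sham-F, and the groups overlapped through the 2 highest young libraries, those of animals 4 and 5. It rose by 1.19 ± 0.39 (SE, adjusted p = 0.00751), and Kcnip3 by 1.49 ± 0.43 (SE, adjusted p = 0.00239), Kcnn4 by 1.21 ± 0.43 (SE, adjusted p = 0.0134), Kcnk5 by 1.51 ± 0.55 (SE, adjusted p = 0.0159) and Trpv2 by 1.12 ± 0.42 (SE, adjusted p = 0.0184). These were the 5 largest rises. Counts of Kcnk5 and Kcnip3 were low, with medians of 3.30 and 7.49 in LV Sham-H and 17.5 and 26.5 in LV Sham-F. The largest falls were those of Kcnrg, -1.23 ± 0.31 (SE, adjusted p = 0.000555), Kcna4, -0.87 ± 0.22 (SE, adjusted p = 0.000621), Cacna2d1, -0.80 ± 0.17 (SE, adjusted p = 6.44e-05), Kcnk2, -0.80 ± 0.22 (SE, adjusted p = 0.00145), and Scn1a, -0.74 ± 0.20 (SE, adjusted p = 0.00144). Kcnj3 and Kcnj2 fell, at -0.64 ± 0.16 (SE, adjusted p = 0.000372) and -0.64 ± 0.14 (SE, adjusted p = 6.09e-05). In the same comparison 5 of 9 fibroblast markers, 3 of 7 endothelial, 5 of 7 mural and 4 of 8 macrophage markers rose, and 1 endothelial marker fell. All 3 of the tested conduction system markers rose, of which Hcn4 is one, at 0.67 ± 0.26 (SE, adjusted p = 0.0233).

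The difference between the ventricles differed with age for 22 members when tested itself, 11 in each direction, against 25.1% and 24.7% of all genes. It was more positive in Sham-F for Cacnb2, by 0.85 ± 0.18 (SE, adjusted p = 0.000406), and for Cacna2d1, Trpm7, Trpc1 and Kcna4, by 0.81, 0.77, 0.77 and 0.76 on the log2 scale. It was more negative for Kcna5, at -1.76 ± 0.32 (SE, adjusted p = 0.00011), Trpv4, Cacnb3 and Kcnj8, at -1.03, -0.86 and -0.83, and Hcn4, at -0.65 ± 0.27 (SE, adjusted p = 0.0417). For Cacna1d no change with age was called, with a difference of -0.02 ± 0.26 (SE, adjusted p = 0.945). Without the 5 animals 34 members were called, the 22 among them.

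In the pressure-loaded RV, transcripts of the leak channel gene Kcnk2 and of the calcium channel gene Cacng6 were lower than in sham animals. Those of the T-type calcium channel gene Cacna1g were higher. All 3 were called at both stages, but at the H stage none was called without PAB-H animal 2. PAB and AOB animals of a stage shared their sham controls. At the H stage 4 of 81 members rose over RV Sham-H, against 3.91% of all genes, and 3 fell, against 0.594%. Kcnk2 had 253 to 495 (median 367) in RV PAB-H and 549 to 673 (median 627) in RV Sham-H, all banded libraries lying below all sham libraries. It fell, at -0.80 ± 0.24 (SE, adjusted p = 0.0406). Cacna1g had 284 to 515 (median 442) and 189.7 to 314 (median 244), where 1 banded library lay within the sham range, and rose by 0.85 ± 0.25 (SE, adjusted p = 0.0349). Cacna1h, the other T-type pore, fell, at -0.80 ± 0.23 (SE, adjusted p = 0.0345) and Cacng6 at -0.69 ± 0.21 (SE, adjusted p = 0.0441). Kcng4, Scn3a and Kcns3 rose by 1.32 ± 0.38 (SE, adjusted p = 0.0325), 1.29 ± 0.32 (SE, adjusted p = 0.0152) and 1.04 ± 0.29 (SE, adjusted p = 0.0259).

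These calls depended on single animals of both groups. Without PAB-H animal 2, 0 members were called in edgeR, against 0.241% of all genes, although the log2 fold changes of Kcnk2 and Cacna1g were -0.72 and 0.79 with adjusted p-values of 0.265 and 0.214. Scn3a went from 1.29 to 0.78, with that animal's RV library at 269 counts of Scn3a and the next 117. The count was 11 without PAB-H animal 6, 4 without PAB-H animal 3 or 4, and 4, 3, 3, 1 and 2 without Sham-H animal 2, 3, 5, 6 or 7. Without all 5 animals 1 member, Cacna1g, was called, at 0.93 with an adjusted p of 0.0102. Of the fibroblast markers 9 of 9 rose in the same comparison, and so did 1 of 7 endothelial, 1 of 7 mural, 0 of 8 macrophage and 2 of 4 atrial markers.

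In the failing RV, 12 members rose over the RV of Sham-F animals, against 7.66% of all genes, and 7 fell, against 3.42%. Of those that fell, Kcnk2 fell the most. Its counts were 67.7 to 369 (median 246) in RV PAB-F and 422 to 617 (median 479) in RV Sham-F, with all failing libraries under all sham libraries. It fell, at -1.07 ± 0.24 (SE, adjusted p = 0.00131), and without PAB-F animal 1, whose library was the lowest, at -0.89 with an adjusted p of 0.0175. Cacng6 had 18.2 to 116 (median 80.8) against 104 to 196 (median 154), where the 2 highest failing libraries lay within the sham range, and fell, at -0.95 ± 0.21 (SE, adjusted p = 0.00133). Kcnj3 had 667 to 1480.0 (median 1308) against 1557 to 2175 (median 1878), which did not overlap, and fell, at -0.56 ± 0.17 (SE, adjusted p = 0.0177). Kcna2 and Cacna1d fell, at -0.88 ± 0.27 (SE, adjusted p = 0.0222) and -0.81 ± 0.25 (SE, adjusted p = 0.0283), and Kcnj12 at -0.45 ± 0.13 (SE, adjusted p = 0.0175). The Ito pores were not called, with -0.42 ± 0.18 for Kcnd3 and -0.27 ± 0.17 for Kcnd2 and adjusted p-values of 0.107 and 0.297.

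Cacna1g had 319 to 2419 (median 562) in RV PAB-F and 198 to 348 (median 263) in RV Sham-F. Only the lowest failing library lay within the sham range, and PAB-F animal 1 had the highest count. The log2 fold change was 1.61 ± 0.23 (SE, adjusted p = 5.01e-07), and 0.94 with an adjusted p of 0.000529 without that animal. Trpm5, a calcium-activated cation channel known from taste cells, had 38.4 to 75.5 (median 57.6) against 13.7 to 31.04 (median 24.4), without overlap, and rose by 1.33 ± 0.31 (SE, adjusted p = 0.00219). Scn3b, coding for the beta-3 subunit of the sodium channel, had 75.2 to 296 (median 135) against 36.6 to 84.4 (median 62.4), where the 2 lowest failing libraries lay within the sham range, and rose by 1.21 ± 0.27 (SE, adjusted p = 0.00155). Cacna1a, the pore of the P/Q-type calcium channel of nerve endings, rose by 0.91 ± 0.20 (SE, adjusted p = 0.00145), Kcns3 by 1.02 ± 0.27 (SE, adjusted p = 0.00813) and Hcn2 by 0.82 ± 0.26 (SE, adjusted p = 0.0264). Kcnj15, Kcnj14, which codes for Kir2.4, and Kcnma1, the pore of the large-conductance calcium-activated channel, rose by 1.52 ± 0.48 (SE, adjusted p = 0.0275), 1.26 ± 0.34 (SE, adjusted p = 0.0104) and 1.23 ± 0.39 (SE, adjusted p = 0.0285).

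The largest log2 fold changes of this comparison, Trpm2 and Kcne1, rested on 1 library. Trpm2 had 1.03 to 69.03 (median 6.48) in RV PAB-F and 0 to 12.4 (median 2.48) in RV Sham-F, PAB-F animal 1 having the most and the next library 12.8, and its log2 fold change of 2.13 ± 0.61 (SE, adjusted p = 0.015) was 0.77 without that animal, with an adjusted p of 0.554. Kcne1, coding for the accessory subunit minK of the slow delayed rectifier, went likewise from 1.60 ± 0.44 (SE, adjusted p = 0.0105) to 0.97 with an adjusted p of 0.245. Without PAB-F animal 1 the count of calls went from 19 to 6, against 2.81% of all genes. The 6 were Cacna1a, Cacna1g, Kcns3 and Trpm5, higher, and Cacng6 and Kcnk2, lower. Without all 5 animals the count was 13. Both runs held the same PAB-F and Sham-F animals, so 6 and 13 differ through the rest of the fit. The atrial markers took 0.00758% to 0.859% (median 0.0673%) of the counts of RV PAB-F libraries. In RV Sham-F they took 0.00218% to 0.00666% (median 0.00381%). Of the other lists 6 of 9 fibroblast, 2 of 7 endothelial, 2 of 7 mural and 3 of 8 macrophage markers rose. Of the atrial markers Nppa had a mean of 565 FPKM over all libraries, against 12.2, 3.82 and 13.5 for Myl7, Myl4 and Sln. The study names Nppa as an established heart failure marker that rises after PAB, so the share cannot tell atrial cells from ventricular Nppa. The part of other cell types in the channel changes was not tested.

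**Figure D4:**
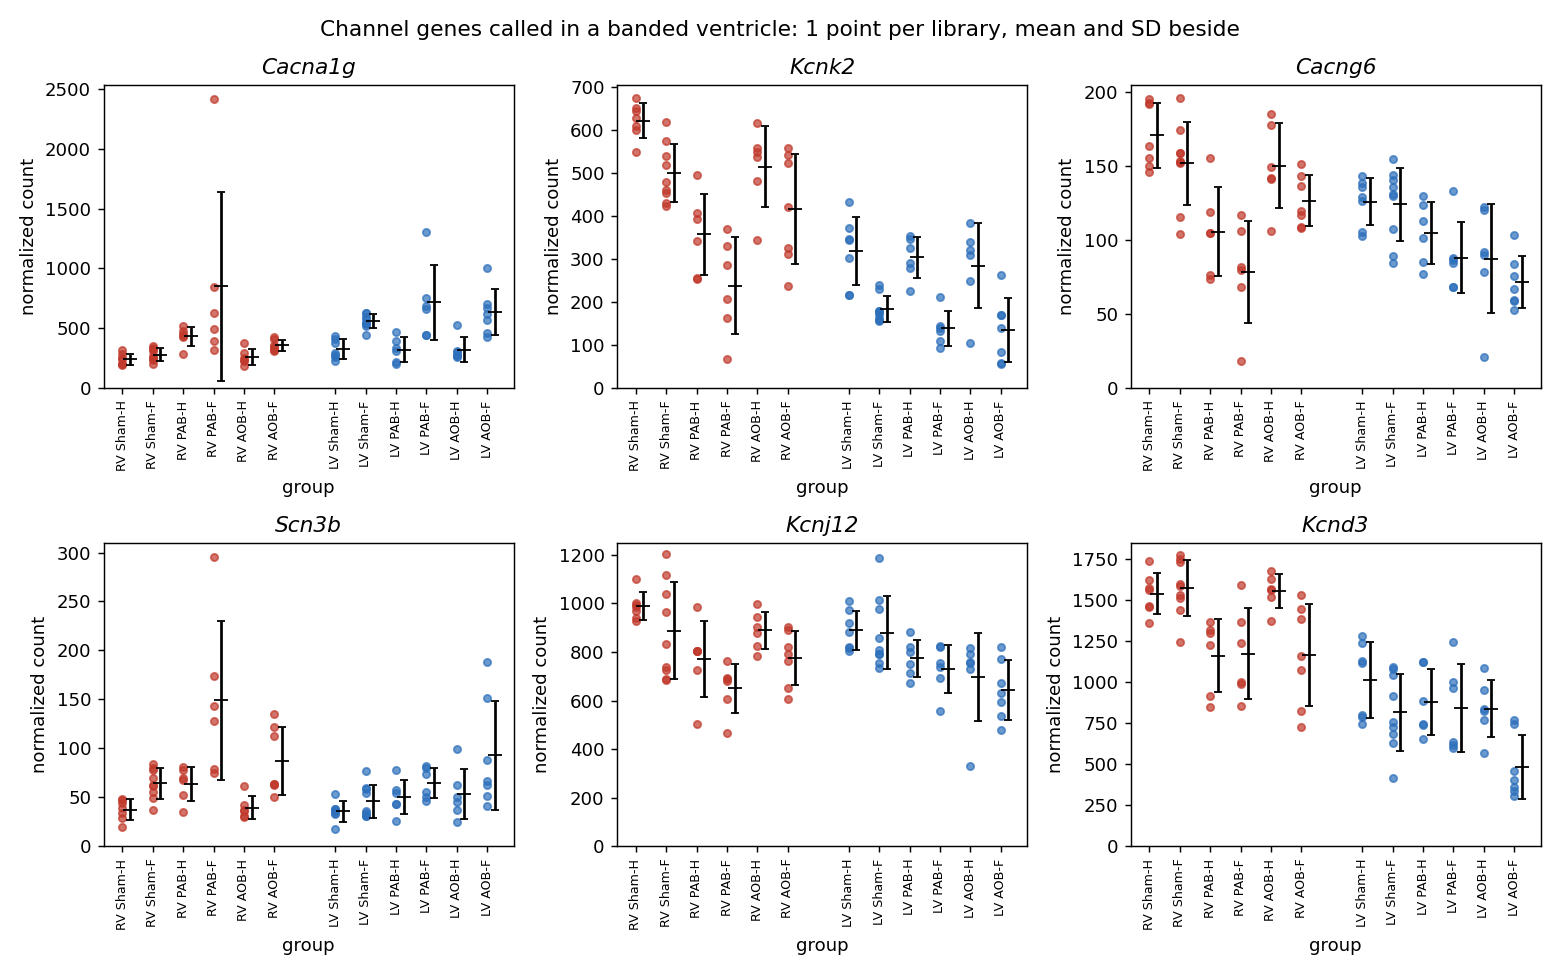
Normalized counts of 6 channel genes in all 12 groups, RV in red and LV in blue, with 1 point per library and the mean and SD beside the points. Kcnk2 and Cacng6 lie lower in RV PAB-H and RV PAB-F than in the RV sham groups, 1 library of RV PAB-F reaches 2419 for Cacna1g, and Kcnd3 is lowest in LV AOB-F.

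In the failing LV, the Ito pore gene Kcnd3 and the delayed rectifier pore genes Kcnh2 and Kcnq1 fell, whereas the other Ito pore genes Kcnd2 and Kcna4 were not called, at -0.15 ± 0.16 (SE, adjusted p = 0.574) and 0.23 ± 0.22 (SE, adjusted p = 0.508). Relative to LV Sham-F 2 members rose, against 8.54% of all genes, and 6 fell, against 4.35%. Kcnd3 had 303 to 768 (median 403) in LV AOB-F and 413 to 1089 (median 755) in LV Sham-F, and the 3 highest failing libraries lay within the sham range. It fell, at -0.76 ± 0.17 (SE, adjusted p = 0.0025). Kcnh2 and Kcnq1, the delayed rectifier pores, had 1129 to 1842 (median 1475) and 1955 to 3639 (median 2613) in LV AOB-F against 1478 to 2781 (median 2129.6) and 2415 to 5493 (median 4365), and fell, at -0.59 ± 0.13 (SE, adjusted p = 0.00168) and -0.56 ± 0.12 (SE, adjusted p = 0.00133). For both the groups overlapped. Cacng6 and Kcnj12, which had also fallen in the failing RV, fell, at -0.79 ± 0.20 (SE, adjusted p = 0.00514) and -0.45 ± 0.13 (SE, adjusted p = 0.0117), and Trpm4, a calcium-activated cation channel, at -0.56 ± 0.14 (SE, adjusted p = 0.00611). Scn3b rose by 1.01 ± 0.26 (SE, adjusted p = 0.00702) and Trpv2 by 1.21 ± 0.39 (SE, adjusted p = 0.0278). Without AOB-F animal 7, the highest library for both, neither was called, at 0.74 and 0.92, and without AOB-F animal 4 the count was 14. In this comparison 5 of 8 macrophage markers rose, and 1 each of the fibroblast, endothelial, mural and atrial markers.

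**Figure D5:**
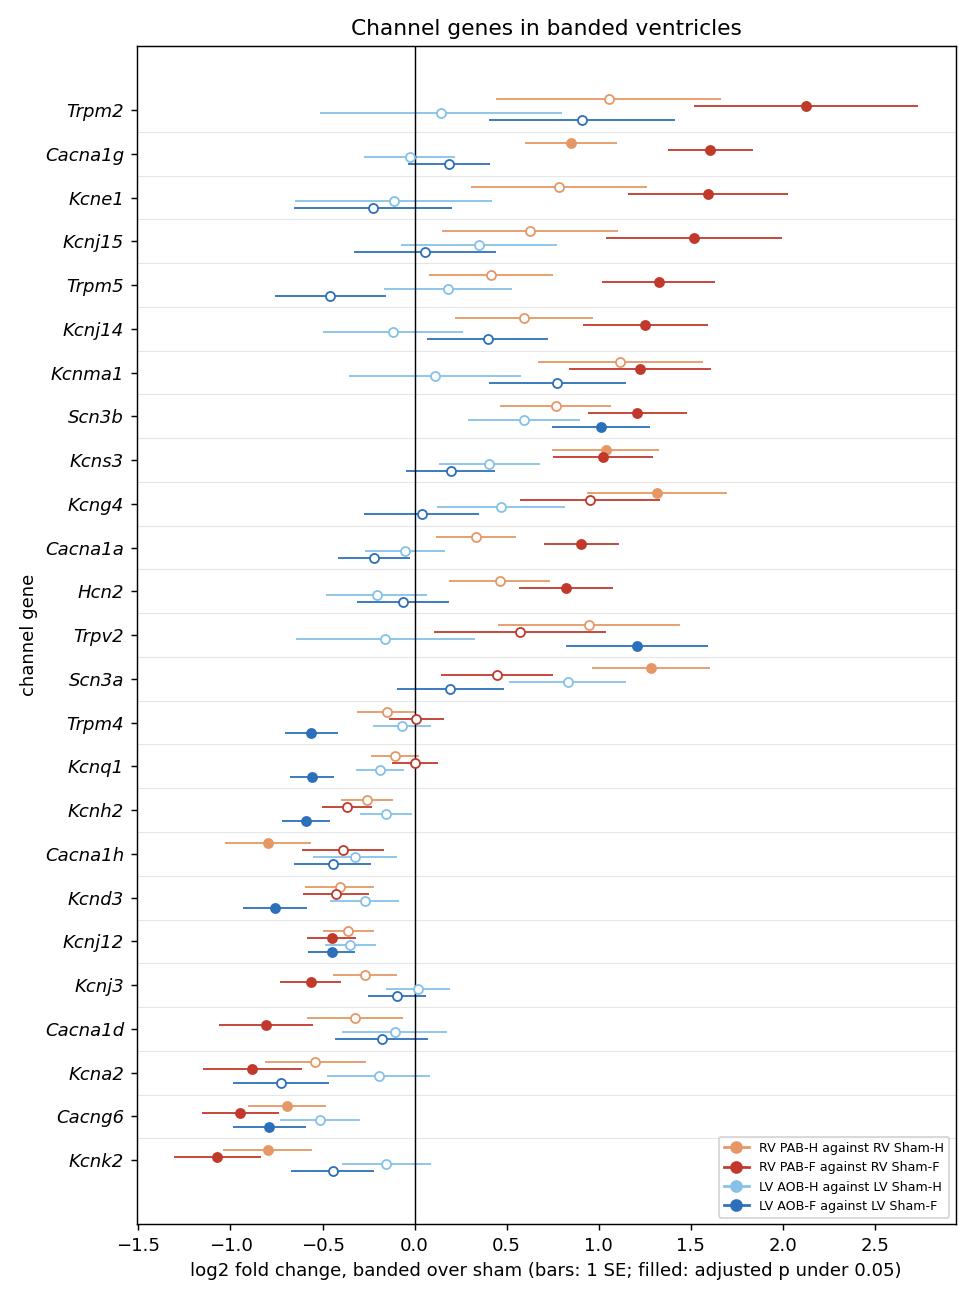
Log2 fold change of banded over sham with 1 SE for 25 channel genes called in at least 1 of the 4 directly loaded ventricles, filled where the adjusted p was under 0.05. Orange and red are the RV after PAB at the H and F stage, light and dark blue the LV after AOB. Cacng6 is filled in 3 of the 4 comparisons, and Cacna1g and Kcnk2 in both RV comparisons.

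No channel gene was called in the LV at the stage of compensatory hypertrophy or in a ventricle away from the band. For LV AOB-H, with LV Sham-H as control, edgeR called 0 of 81 members and 0.0167% of all genes, with 9 members at an unadjusted p under 0.05. In LV PAB-H and LV PAB-F it called 0 members and 0% and 0% of all genes, with 1 and 3 members at an unadjusted p under 0.05. In RV AOB-H and RV AOB-F it called 0 members and 0% and 0.0669% of all genes, with 1 and 2 members at an unadjusted p under 0.05. DESeq2 called 0 members in each of these 5 comparisons. Kcnk2, lower in both banded RV groups, had -0.45 ± 0.23 (SE, adjusted p = 0.179) in the failing LV, -0.40 ± 0.24 (SE, adjusted p = 1) in the LV of PAB-F and -0.26 ± 0.22 (SE, adjusted p = 1) in the RV of AOB-F.

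Whether the RV responded differently from the LV of the same animals was tested as the difference of the differences. For PAB-F 1 member had a more positive response in the RV, against 2.34% of all genes, and 1 a more negative one, against 0.577%. Cacna1g differed by 0.9996 ± 0.19 (SE, adjusted p = 0.00444), with 1.61 in the RV and 0.36 in the LV in the fit without the block, and Kcna2 at -0.90 ± 0.22 (SE, adjusted p = 0.0175), with -0.88 and -0.06. Without PAB-F animal 1 Kcna2 had -0.65 with an adjusted p of 0.122, and without the animal block neither was called. For Kcnk2 the difference of -0.78 ± 0.25 (SE, adjusted p = 0.072) was not called. For PAB-H, AOB-H and AOB-F edgeR called 0 members and 0.0418%, 0% and 0.00837% of all genes, with 18, 6 and 10 members at an unadjusted p under 0.05, and DESeq2 called 2, 0 and 0 members.

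Of 33 genes listed as partners and regulators of these channels, 29 were tested, and the RV had more of 15 and less of 7 of them in Sham-F, against 37.3% and 40% of all genes, and more of 9 and less of 3 in Sham-H, against 17.7% and 14.8%. Akap9, the scaffold of the slow delayed rectifier, was higher by 1.15 ± 0.20 (SE, adjusted p = 5.52e-05) in Sham-H and by 2.06 ± 0.18 (adjusted p = 3.35e-13) in Sham-F. Fgf12 and Fgf13, which bind sodium channels, were higher by 1.54 and 1.69 in Sham-F, Dlg1, Camk2d, Ryr2, Slc8a1 and Gja1 by 1.25, 1.29, 1.13, 1.23 and 1.35, and Rem1, a small GTPase that restrains L-type channels, and Gja5 were lower, with -2.23 and -1.04. In RV PAB-F 1 rose and 4 fell, against 7.66% and 3.42% of all genes, and in LV AOB-F 2 rose and 1 fell, against 8.54% and 4.35%, none with an absolute log2 fold change over 1.

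Further members were Kcna7, Kcnab1, Kcnc1, Kcnd1, Kcne2, Kcne4, Kcnj6, Kcnn1, Kcnt2, Cacng4, Scn2a, Scn4a, Scn7a, Trpc6 and Trpv1. Of these, Kcnab1 was called higher in the RV in 3 conditions, Kcna7, Kcnj6 and Scn7a in 2 each, and Kcnc1, Kcnd1 and Kcne4 were called lower in 2 each and Kcnn1 and Kcnt2 in 1. Cacng4, Kcne2, Scn2a, Scn4a, Trpc6 and Trpv1 were called in none of the 6, and none of the 15 was called in a banded ventricle. For 8 members another named coding gene overlaps in the RefSeq annotation, Dcp1b for Cacna1c, Myh7b for Trpc4ap, Kcnd2l1 for Kcnd2, Tpsg1 for Cacna1h, Gigyf2 for Kcnj13, Tuba1c for Cacnb3, Rpl19 for Cacnb1 and Lrtm1 for Cacna2d3. The study counted reads with multiple overlaps disabled, and the counting strand is not given in the sources used here. Reads of such pairs may therefore be lost or assigned to the other gene, and the values of these 8 are uncertain to that extent.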

How the data were processed

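RNA-seq of isolated cardiomyocytes was taken as deposited, in 1 table of 17337 genes. The raw counts had been made by the authors with Trim Galore, STAR and featureCounts within nf-core, on Rnor6.0 with UCSC annotation. FPKM values and normalized counts, a signal scaled with DESeq2 1.28.1, had also been deposited by the authors. FPKM served here to compare levels between genes, and the deposited normalized signal gave no value printed here. Strandedness is not given in the sources used here.

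Raw counts were analysed in edgeR 4.0.16 (R 4.3.3) with TMM factors, filterByExpr (11954 genes) and the quasi-likelihood test, with Benjamini-Hochberg adjustment over all genes tested and a threshold of 0.05. RV against LV and differences between ventricles were fitted with the animal as a block, because both libraries carry 1 animal number in the labels; animals are numbered here within a condition. Deviations from the group means had a median r per condition of 0.186 to 0.297 within animals and -0.069 to -0.014 between animals. Banded groups and ages were compared in a fit with a mean per group. Printed counts are raw counts over the TMM effective library size, times its mean of 13279120. SE is the absolute log2 fold change over the root of the F statistic. No library was a copy of another (lowest chi-square per gene between any pair 4.04). The scripts were tested on simulated data.

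Members, lists and tests were chosen with earlier results of these data known. Named are members on the lists of currents among the 25 highest by FPKM, and for each comparison the 5 largest called changes in each direction, and of the partners those called with an absolute log2 fold change over 1. Others were added after their values were seen. Alternatives were DESeq2 1.42.0, other size factors, no filter, a gene length offset, the fit with or without the block, sex as a covariate, the study's criteria (log2 fold change of at least 1, p under 0.01, mean of at least 50) and leaving out each animal. Leaving out animals in the blocked fit with its dispersions kept, and leaving out the 5 animals, were chosen after seeing the data. The article's other data were not used here, and results of some members are not reported here, although the counts include them.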

Additional observations from a re-analysis of the deposited data

Results flagged for a closer look

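Among 157 pairs of a named member and a group, 22 had a normalized count far from the other libraries of its group by Dixon's criterion. Chance meets it in about 1 in 20 groups of normally distributed values. The counts were not put on a log scale and pairs share libraries, so that rate need not hold here. The far library is given with the library next to it. PAB-F animal 1 held 5 of them in the RV, the highest Cacna1g (2419 against 842), Kcne1 (119.8 against 48.6), Trpm2 (69.03 against 12.8) and Trpm3 (39.1 against 13.98) and the lowest Kcnj3 (667 against 1263). AOB-H animal 6 held the highest Cacna1d in both ventricles, 241 against 109 in the RV and 104 against 34.8 in the LV, and the highest Kcng4 (71.4 against 24.8) and Kcns3 (172 against 64.3) in the LV. PAB-H animal 2 had the highest Scn3a in the RV (269 against 117) and Kcna5 in the LV (530.1 against 138), and Sham-H animal 4 the highest Cacnb3 in the LV (82.3 against 46.6).

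Sham-F animal 4 had the highest Kcna4 (446 against 342), Kcne1 (32.5 against 16.1) and Trpm2 (12.4 against 5.08) of the RV and the highest Scn1a of the LV (476 against 268). In LV Sham-F, Cacnb3 was lowest in animal 8 (26.5 against 61.9), Kcnj15 highest in animal 3 (56.7 against 25.8) and Kcnn4 highest in animal 2 (107 against 71.5). The others were Cacnb3 in LV PAB-F animal 5 (16.9 against 72.1), Kcnrg in RV PAB-F animal 4 (37.1 against 26.9) and Trpc7 in RV AOB-H animal 3 (18.6 against 25.1).

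The response to PAB at the failure stage differed between the ventricles by 0.9996 for Cacna1g and -0.90 for Kcna2, RV minus LV on the log2 scale. The difference between the ventricles, RV over LV, differed between Sham-F and Sham-H by -1.76 for Kcna5, -1.03 for Trpv4, -0.86 for Cacnb3, -0.83 for Kcnj8, -0.65 for Hcn4, -0.60 for Trpm4, -0.59 for Cacna1g, -0.56 for Cacna1h, -0.49 for Kcng2, -0.34 for Kcnh2, 0.34 for Kcnj5, 0.39 for Scn4b, 0.52 for Kcnd2, 0.58 for Kcnj3, 0.61 for Scn1a, 0.69 for Kcnj2, 0.76 for Kcna4, 0.77 for Trpc1, 0.77 for Trpm7, 0.81 for Cacna2d1 and 0.85 for Cacnb2. Sham-H animals 4 and 5, whose LV libraries lay with those of the older animals, were part of that test.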

How the results depend on the processing

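Values here are numbers of members called unless said otherwise. Size factors of DESeq2 in edgeR, the gene length offset and sex as a covariate moved no count by over 1.5 times, and no named change reversed under any alternative run. DESeq2 called 6 members in the difference for PAB-F, 2 in that for PAB-H and 6 for RV against LV in PAB-H. Without a filter 4 were called in RV PAB-H, and with the gene length offset 3 rose and 2 fell there. The study's criteria, which ask for a larger change, called 5, 25, 1, 9, 5 and 21 for RV against LV in Sham-H, Sham-F, PAB-H, PAB-F, AOB-H and AOB-F, 2 in RV PAB-H, 6 in RV PAB-F, 2 in LV AOB-F and 2 in LV Sham-F against LV Sham-H. Without the animal block, RV against LV gave 21 in Sham-H, 13 in AOB-H and 1 in PAB-H, and the difference for PAB-F gave 0. With a block by replicate number, which pairs no animals between banded and sham groups, RV PAB-F gave 12. Without the 5 animals there were 10 for RV against LV in Sham-H, 34 for its difference with age and 1 in RV PAB-H, and the cause was not tested.

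Leaving out 1 animal at a time gave 22 to 33 in Sham-H, 55 to 59 in Sham-F, 1 to 4 in PAB-H (1 without animal 2, 3 or 4, 4 without animal 1), 36 to 47 in PAB-F, 13 to 24 in AOB-H (13 without animal 6) and 46 to 50 in AOB-F for RV against LV. It gave 0 to 11 in RV PAB-H (0 without PAB-H animal 2, 11 without PAB-H animal 6), 6 to 21 in RV PAB-F (6 without PAB-F animal 1), 6 to 14 in LV AOB-F (14 without AOB-F animal 4) and 29 to 38 for the ages in the LV. For the differences it gave 1 to 8 for PAB-F (1 without PAB-F animal 1 or 5, 8 without PAB-F animal 3, 4 without PAB-F animal 4 or 6 or Sham-F animal 3), 0 to 1 for PAB-H (1 without PAB-H animal 1 or 6 or Sham-H animal 1 or 7) and 16 to 29 with age. The comparisons not listed had 0 throughout. Over 1065 refits of a named change 97 lost the call and 0 turned direction. Named changes were picked for being called, so the absence of a reversal in any of these runs says little of their stability.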
